A study of Mus musculus with 11 samples.

Results

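Histone genes of the replication-dependent and linker families were followed across 4 reporter populations of the young adult mouse dentate gyrus, the hippocampal region that goes on making granule neurons after birth. A gene was included when its array probe set carried a single symbol and that symbol began with H1f, H2ac, H2bc, H3c or H4c and a digit, or with an older Hist name, and the probe set with the highest mean stood for the gene. This rule selected 30 of the 19938 genes with a single-symbol probe set, and each of the 30 had 1 such probe set. The selection comprised 8 linker (H1) genes, 4 H2A genes, 9 H2B genes, 3 H3 genes and 6 H4 genes.

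GFP-positive cells were sorted from microdissected dorsal and ventral dentate gyrus of mice at postnatal day 35, their RNA was amplified, and 11 Affymetrix Mouse Gene 1.0 ST arrays were hybridised. PomcGFP (2 arrays) is a transgenic reporter of Pomc, a hormone precursor gene whose reporter marks newborn granule neurons. kiTbr2GFP (3 arrays) has GFP knocked into Eomes, the gene of the intermediate progenitor factor Tbr2, and tgTbr2GFP (3 arrays) carries GFP on a BAC transgene of the same gene. NesGFP (3 arrays) is a transgenic reporter of Nes, an intermediate filament of neural stem cells, and served as the comparison population for the other lines. Every population therefore carried a GFP reporter, and what was sorted depended on where each reporter was active. Whether each array represents different mice is not stated in the labels, so a p-value here measures array-to-array spread, part or all of which may be technical.

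Replication-dependent histone genes are small, mostly intronless genes packed into clusters, and a dividing cell expresses them in S phase to package its new DNA. Their mRNAs typically end in a conserved stem-loop in place of a poly(A) tail, and the stem-loop binding protein Slbp carries them through processing and translation. H2A, H2B, H3 and H4 form the nucleosome core and H1 proteins bind the linker DNA between nucleosomes. Some members depart from this pattern: H2bc21, H2bc4 and H1f2 are known to give polyadenylated transcripts in differentiating cells, H1f10 is expressed outside S phase, H1f6, H1f7, H2ac1 and H2bc1 are known from the testis, and H1f8 is the linker histone of the oocyte.

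Of the 30 genes, 23 lay on chromosome 13, 4 on chromosome 3, 2 on chromosome 6 and 1 on chromosome 15. The stretches upstream of 6 of them are shown because they carry the family motifs of linker, H2B and H4 genes that differed between the lines in the results that follow. Each stretch is the 150 bases before the gene start in RefSeq, on GRCm38.p6. The capitals mark the H1 box AAACACA in the linker genes, the octamer ATTTGCAT in the H2B genes, and GGTCCG, part of the H4 subtype element, in the H4 genes.
H1f2: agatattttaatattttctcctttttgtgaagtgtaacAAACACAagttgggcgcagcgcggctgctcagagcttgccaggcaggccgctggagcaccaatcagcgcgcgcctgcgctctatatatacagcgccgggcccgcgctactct
H1f5: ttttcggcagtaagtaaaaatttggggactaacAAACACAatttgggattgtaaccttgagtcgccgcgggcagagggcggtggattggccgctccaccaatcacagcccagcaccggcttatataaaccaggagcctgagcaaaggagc
H2bc3: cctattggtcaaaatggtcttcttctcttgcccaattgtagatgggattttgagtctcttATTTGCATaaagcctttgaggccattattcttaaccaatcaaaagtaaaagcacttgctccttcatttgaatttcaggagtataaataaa
H2bc14: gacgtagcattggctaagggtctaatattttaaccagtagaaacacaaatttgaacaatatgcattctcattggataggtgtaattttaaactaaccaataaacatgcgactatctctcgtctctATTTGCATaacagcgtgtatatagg
H4c4: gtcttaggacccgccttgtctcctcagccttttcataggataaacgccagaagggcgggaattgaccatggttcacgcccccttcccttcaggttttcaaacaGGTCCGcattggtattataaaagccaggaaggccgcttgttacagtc
H4c6: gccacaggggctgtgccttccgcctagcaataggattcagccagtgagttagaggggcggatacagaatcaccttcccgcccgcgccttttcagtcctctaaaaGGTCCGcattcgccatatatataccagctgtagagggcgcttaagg
These stretches lie at chr13:23738657-23738806 on the plus strand (H1f2), chr13:21780626-21780775 on the minus strand (H1f5), chr13:23746584-23746733 on the plus strand (H2bc3), chr13:21721894-21722043 on the plus strand (H2bc14), chr13:23581418-23581567 on the plus strand (H4c4) and chr13:23551669-23551818 on the minus strand (H4c6). Motifs were counted on both strands in windows from 250 bases before to 50 bases after the start, which 26 of the 30 genes had. The octamer was present in 3 of 4 H2A and 5 of 7 H2B windows, in 0 of the H1, H3 and H4 windows, and in 1.97% of the 27025 gene windows on record. AAACACA was present in 4 of 8 H1 windows, 2 of 4 H2A windows and 2 of 7 H2B windows, against 8.22% of all windows. GGTCCG was present in 5 of 5 H4 windows, 1 of 8 H1 windows (H1f10) and 1 of 7 H2B windows (H2bc9), against 9.44% of all windows. A longer form, TTTTCA and then 4 bases of any kind before GGTCCG, was present in H4c3, H4c4 and H4c9, against 0.0222% of all windows. CCAAT was present in 21 of 26 windows, against 41.1% of all windows. The letters were chosen after the sequences had been seen, and a match is a description of the sequence only.

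Histone genes were mostly highest in NesGFP and lowest in PomcGFP, with the Tbr2 lines between. The NesGFP mean was the highest of the 4 group means in 24 of 30 genes (37.9% of all genes tested), and the PomcGFP mean was the lowest in 20 of 30 (17.7% of all genes). In limma's moderated F test over the 4 groups, with Benjamini-Hochberg adjustment over 19938 genes and a threshold of 0.05, 16 of 30 histone genes passed, against 36.3% of all genes tested. They were 3 of 8 H1 genes, 1 of 4 H2A genes, 6 of 9 H2B genes, 1 of 3 H3 genes and 5 of 6 H4 genes. The deposited values are on a log2 scale, and differences are log2 differences. In bulk samples such as these, fewer cells of a type and less RNA per cell cannot be told apart.

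**Figure D1:**
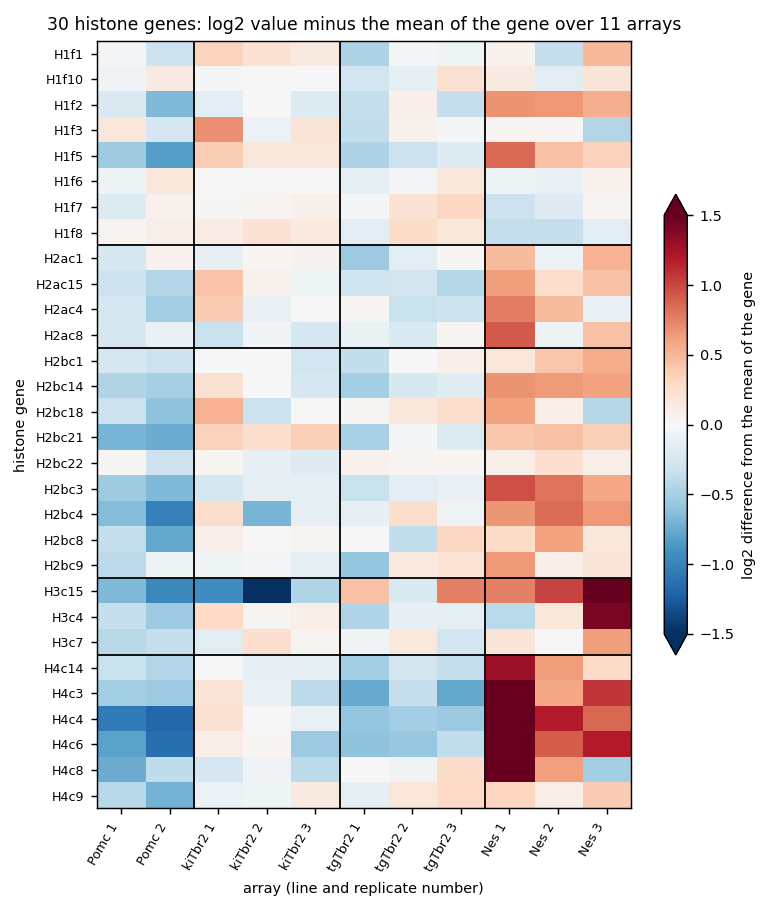
Log2 value of each of the 30 histone genes (rows, by family) on each of the 11 arrays (columns, by line) minus the mean of that gene over all arrays, with red above and blue below that mean. The NesGFP columns are red for most H2B and H4 genes, the PomcGFP columns are blue for most of them, and H1f3, H1f6, H1f7 and H1f10 show no such order.

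Between PomcGFP and NesGFP, which asks how the Pomc-reporter population differs from the Nestin-reporter population, 17 of 30 histone genes were lower in PomcGFP and 0 higher, against 19.7% of all genes lower and 13.8% higher. The median difference of the 30 genes was -0.82 on the log2 scale, against 0.04 over all genes tested. Both PomcGFP arrays lay below all 3 NesGFP arrays in 20 of 30 genes (26.5% of all genes). At an unadjusted p under 0.05, limma gave 22 of the 30, against 42.4% of all genes.

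For both Tbr2 lines (the mean of the lines) against NesGFP, which asks what sets cells marked by Tbr2 apart, 14 of 30 genes were lower in the Tbr2 lines and 1, H1f8, was higher, against 24.1% and 17.4% of all genes. The median difference of the 30 genes was -0.44, against 0.01 over all genes. All 6 Tbr2 arrays lay below all NesGFP arrays in 10 of 30 genes (21.3% of all genes). Taken by line, kiTbr2GFP against NesGFP gave 11 lower and 1 higher histone genes (22.3% and 15.9% of all genes) with a median of -0.31, against 0.02 over all genes. In tgTbr2GFP against NesGFP, 13 were lower and 1 higher (21.2% and 13.5% of all genes) with a median of -0.53, against 0.00 over all genes. These comparisons share the 3 NesGFP arrays.

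The 75th percentile of values stood higher on the NesGFP arrays, and the scaling between arrays moved the share of all genes called in each direction. With each array set to an equal 75th percentile, a scaling added after seeing the data, the median of all genes was 0.19 for PomcGFP against NesGFP and 0.17 for both Tbr2 lines against NesGFP. The share of all genes higher and lower then became 22.2% and 15.4% for PomcGFP, 31.1% and 18.8% for both Tbr2 lines, 28.3% and 17.2% for kiTbr2GFP, and 21.6% and 16.5% for tgTbr2GFP, each against NesGFP. Among the 30 histone genes 1 was then higher and 16 lower in PomcGFP, with a median of -0.67. In both Tbr2 lines 2 were higher and 11 lower, with a median of -0.28. In kiTbr2GFP 2 were higher and 9 lower, and in tgTbr2GFP 2 were higher and 10 lower.

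**Figure D2:**
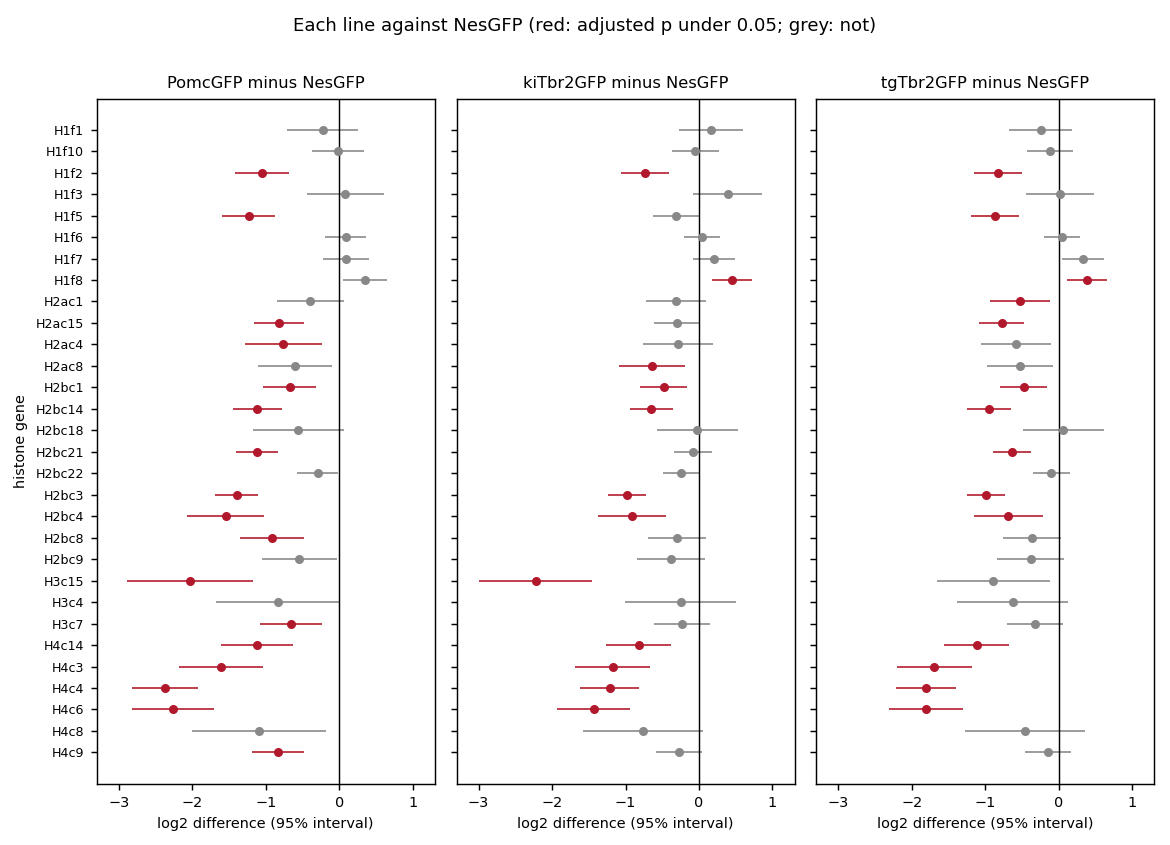
Log2 difference from NesGFP with its 95% interval (horizontal axis) for each histone gene (rows) in PomcGFP, kiTbr2GFP and tgTbr2GFP, with red points for an adjusted p under 0.05 and grey points otherwise. H4c4 and H4c6 lie farthest left in PomcGFP, H3c15 in kiTbr2GFP, and H1f8 is the red point right of 0 in both Tbr2 panels.

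Among the H4 genes, 5 of 6 were lower in PomcGFP than in NesGFP (19.7% of all genes). In both Tbr2 lines together 4 of 6 were lower (24.1% of all genes). The H4 genes all encode the same core histone, whose protein is nearly identical from gene to gene. H4c4 stood at 9.24 and 9.11 on the PomcGFP arrays, 10.52, 10.29 and 10.17 on the kiTbr2GFP arrays, 9.70, 9.77 and 9.73 on the tgTbr2GFP arrays, and 12.01, 11.48 and 11.14 on the NesGFP arrays. No line overlapped another for this gene, and NesGFP was highest, followed by kiTbr2GFP, tgTbr2GFP and PomcGFP. Its difference from NesGFP was -2.37 ± 0.21 (SE; adjusted p = 8.13e-06) in PomcGFP, 5.16-fold lower. In both Tbr2 lines it was -1.51 ± 0.16 (SE; adjusted p = 1.52e-05), 2.85-fold lower.

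H4c6 stood at 6.62 and 6.30 on the PomcGFP arrays, 7.53, 7.45 and 6.88 on the kiTbr2GFP arrays, 6.83, 6.86 and 7.06 on the tgTbr2GFP arrays, and 9.22, 8.33 and 8.61 on the NesGFP arrays. Every NesGFP array was above every other array, and both PomcGFP arrays were below the Tbr2 arrays. The difference of H4c6 from NesGFP was -2.26 ± 0.25 (SE; adjusted p = 4.79e-05) in PomcGFP and -1.62 ± 0.20 (SE; adjusted p = 4.45e-05) in both Tbr2 lines. That is 4.80-fold lower in PomcGFP and 3.08-fold lower in the Tbr2 lines. H4c3 stood at 7.06 and 7.03 on the PomcGFP arrays, 7.77, 7.48 and 7.19 on the kiTbr2GFP arrays, 6.83, 7.24 and 6.81 on the tgTbr2GFP arrays, and 9.16, 8.15 and 8.65 on the NesGFP arrays. Here too NesGFP was above all other arrays, while PomcGFP lay among the Tbr2 arrays. H4c3 differed from NesGFP by -1.61 ± 0.26 (SE; adjusted p = 0.000611) in PomcGFP and by -1.44 ± 0.20 (SE; adjusted p = 0.000138) in both Tbr2 lines.

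H4c14, an H4 gene of the chromosome 3 group, stood at 9.29 and 9.19 on the PomcGFP arrays, 9.63, 9.50 and 9.49 on the kiTbr2GFP arrays, 9.11, 9.35 and 9.27 on the tgTbr2GFP arrays, and 10.91, 10.25 and 9.92 on the NesGFP arrays. The lowest NesGFP array was still above the highest kiTbr2GFP array, and the NesGFP arrays spread more widely than those of the other lines. H4c14 differed by -1.12 ± 0.22 (SE; adjusted p = 0.00251) in PomcGFP and by -0.97 ± 0.17 (SE; adjusted p = 0.000833) in both Tbr2 lines. H4c9 stood at 7.16 and 6.87 on the PomcGFP arrays, 7.49, 7.51 and 7.71 on the kiTbr2GFP arrays, 7.44, 7.77 and 7.88 on the tgTbr2GFP arrays, and 7.90, 7.68 and 7.97 on the NesGFP arrays. Only PomcGFP was set apart for this gene, with both arrays below the other 9. H4c9 differed from NesGFP by -0.83 ± 0.16 (SE; adjusted p = 0.00188) in PomcGFP and by -0.22 ± 0.12 (SE; adjusted p = 0.188) in both Tbr2 lines. H4c8 ranged from 6.04 to 8.27 over the arrays, its NesGFP values alone covered 6.27 to 8.27, and it passed in no comparison.

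The H3 genes had the fewest members with a probe set of their own. H3c15, an H3 gene of the chromosome 3 group, stood at 7.14 and 6.83 on the PomcGFP arrays, 6.86, 6.18 and 7.35 on the kiTbr2GFP arrays, 8.24, 7.57 and 8.56 on the tgTbr2GFP arrays, and 8.55, 8.81 and 9.68 on the NesGFP arrays. Its kiTbr2GFP and PomcGFP arrays were all below the tgTbr2GFP and NesGFP arrays, and tgTbr2GFP overlapped NesGFP. H3c15 was 4.66-fold lower in kiTbr2GFP than in NesGFP, a difference of -2.22 ± 0.35 (SE; adjusted p = 0.000392), and 4.08-fold lower in PomcGFP, a difference of -2.03 ± 0.39 (SE; adjusted p = 0.00196). In tgTbr2GFP the difference from NesGFP was -0.89 ± 0.35 (SE; adjusted p = 0.0705), which did not pass.

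H3c4 ranged from 6.96 to 8.92, with a NesGFP array at each of 7.09 and 8.92, and passed in no comparison. H3c7 lay below the 25th percentile of the array on all 11 arrays, at 3.48 to 4.52. It passed as lower in PomcGFP than in NesGFP, at -0.66 ± 0.19 (SE; adjusted p = 0.0219), and not without the first (adjusted p = 0.114) or the second PomcGFP array (adjusted p = 0.0876).

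**Figure D3:**
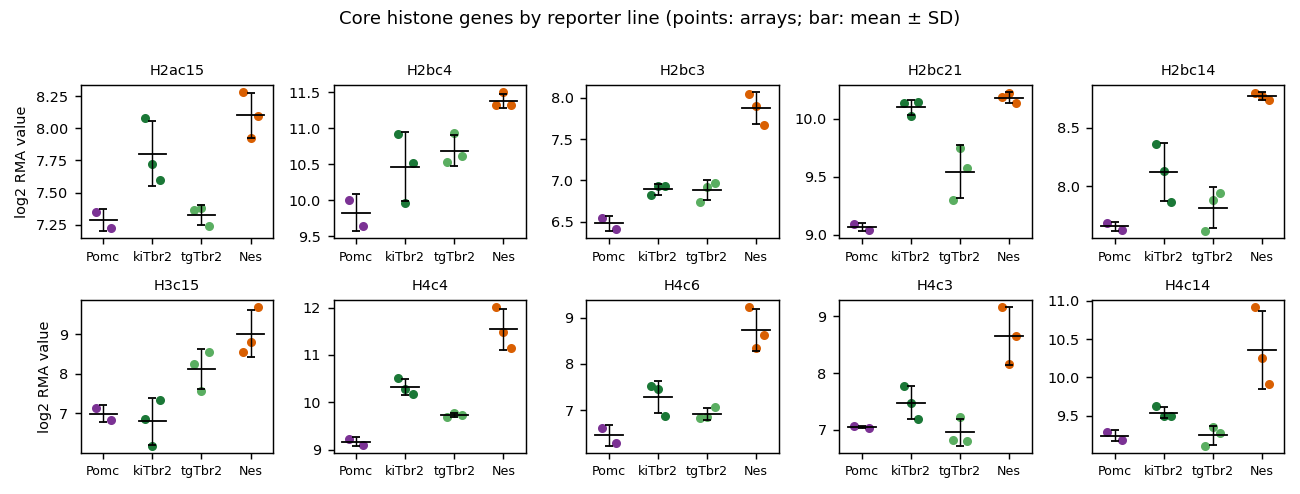
Log2 RMA values (vertical axes, a range of its own in each panel) of 10 core histone genes on each array, by line, with the mean and SD of each line as bars. NesGFP lies above the other lines without overlap for H2bc3, H2bc4, H2bc14, H4c3, H4c4, H4c6 and H4c14, and kiTbr2GFP lies close to NesGFP for H2bc21.

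Of the H2B genes, 6 of 9 were lower in PomcGFP than in NesGFP (19.7% of all genes). In both Tbr2 lines 5 of 9 were lower (24.1% of all genes). H2bc3 stood at 6.54 and 6.41 on the PomcGFP arrays, 6.82, 6.93 and 6.93 on the kiTbr2GFP arrays, 6.74, 6.92 and 6.97 on the tgTbr2GFP arrays, and 8.05, 7.90 and 7.66 on the NesGFP arrays. NesGFP was above and PomcGFP below all other arrays, while the Tbr2 lines covered the same narrow range. H2bc3 was lower by 2.62-fold in PomcGFP, with a difference of -1.39 ± 0.13 (SE; adjusted p = 1.57e-05), and by 1.98-fold in both Tbr2 lines, with a difference of -0.99 ± 0.10 (SE; adjusted p = 1.46e-05). H2bc14 stood at 7.68 and 7.63 on the PomcGFP arrays, 8.37, 8.13 and 7.87 on the kiTbr2GFP arrays, 7.62, 7.89 and 7.95 on the tgTbr2GFP arrays, and 8.80, 8.78 and 8.74 on the NesGFP arrays. Its NesGFP arrays, within 0.1 of each other on the log2 scale, were above all others, and PomcGFP overlapped tgTbr2GFP. H2bc14 differed from NesGFP by -1.11 ± 0.15 (SE; adjusted p = 0.000176) in PomcGFP and -0.80 ± 0.12 (SE; adjusted p = 0.000180) in both Tbr2 lines.

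H2bc4 and H2bc21 are H2B genes with known polyadenylated forms. H2bc4 stood at 10.01 and 9.65 on the PomcGFP arrays, 10.92, 9.96 and 10.52 on the kiTbr2GFP arrays, 10.53, 10.93 and 10.61 on the tgTbr2GFP arrays, and 11.32, 11.49 and 11.32 on the NesGFP arrays. NesGFP was above all other arrays, and the second kiTbr2GFP array lay within the PomcGFP range. The difference of H2bc4 from NesGFP was -1.55 ± 0.24 (SE; adjusted p = 0.000419) in PomcGFP and -0.80 ± 0.18 (SE; adjusted p = 0.00427) in both Tbr2 lines. In tgTbr2GFP alone it was -0.69 ± 0.21 (SE; adjusted p = 0.0256), and the call ended without the second NesGFP array (adjusted p = 0.0747) or without tgTbr2GFP array 1 (0.0877) or 3 (0.0772). It also ended with array weights (adjusted p = 0.151) and with an equal 75th percentile (adjusted p = 0.0548).

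H2bc21 stood at 9.09 and 9.04 on the PomcGFP arrays, 10.13, 10.02 and 10.14 on the kiTbr2GFP arrays, 9.30, 9.75 and 9.58 on the tgTbr2GFP arrays, and 10.19, 10.22 and 10.14 on the NesGFP arrays. The order of the lines differed here, since kiTbr2GFP met the range of NesGFP, tgTbr2GFP was below both and PomcGFP was below all. H2bc21 differed from NesGFP by -1.12 ± 0.13 (SE; adjusted p = 6.78e-05) in PomcGFP, by -0.64 ± 0.12 (SE; adjusted p = 0.00126) in tgTbr2GFP and by -0.08 ± 0.12 (SE; adjusted p = 0.614) in kiTbr2GFP. The call for the mean of both Tbr2 lines, at -0.36 ± 0.10 (SE; adjusted p = 0.0138), ended with cyclic loess between arrays (adjusted p = 0.0782), with array weights (adjusted p = 0.0523) and with an equal 75th percentile (adjusted p = 0.135).

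H2bc8 was lower in PomcGFP than in NesGFP, at -0.91 ± 0.20 (SE; adjusted p = 0.00432), a call that ended without the second PomcGFP array (adjusted p = 0.0660). The testis gene H2bc1, above the 25th percentile on 1 of 11 arrays and at 5.11 to 6.04, passed as lower in PomcGFP, at -0.67 ± 0.16 (SE; adjusted p = 0.00800), and in both Tbr2 lines, at -0.48 ± 0.13 (SE; adjusted p = 0.00980). Without the second PomcGFP array the PomcGFP call of H2bc1 ended (adjusted p = 0.0623), and with an equal 75th percentile that of both Tbr2 lines did (adjusted p = 0.0657). H2bc9, H2bc18 and H2bc22 passed in no comparison, with differences in PomcGFP from NesGFP of -0.55, -0.55 and -0.29.

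For H2A, 2 of 4 genes were lower in PomcGFP (19.7% of all genes) and 2 of 4 in both Tbr2 lines (24.1%). H2ac15 stood at 7.35 and 7.22 on the PomcGFP arrays, 8.08, 7.72 and 7.60 on the kiTbr2GFP arrays, 7.36, 7.38 and 7.24 on the tgTbr2GFP arrays, and 8.28, 7.93 and 8.09 on the NesGFP arrays. PomcGFP and tgTbr2GFP overlapped each other and lay below NesGFP, whereas the first kiTbr2GFP array was inside the NesGFP range. H2ac15 differed from NesGFP by -0.82 ± 0.16 (SE; adjusted p = 0.00185) in PomcGFP, by -0.78 ± 0.14 (SE; adjusted p = 0.00108) in tgTbr2GFP and by -0.30 ± 0.14 (SE; adjusted p = 0.115) in kiTbr2GFP.

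H2ac4 and H2ac8 lay below the 25th percentile on all 11 arrays, at 4.49 to 5.77 and 3.07 to 4.33. H2ac8 passed as lower in both Tbr2 lines, at -0.59 ± 0.18 (SE; adjusted p = 0.0198), a call that ended without the first NesGFP array, where the difference was -0.34 (adjusted p = 0.0976), and with an equal 75th percentile (adjusted p = 0.0657). H2ac4 passed as lower in PomcGFP, at -0.76 ± 0.24 (SE; adjusted p = 0.0301), and not without either PomcGFP array (adjusted p = 0.0648 and 0.198), without the first (0.0902) or second NesGFP array (0.0728), or in a fit of PomcGFP and NesGFP alone (0.10). The testis gene H2ac1 was at 7.32 to 8.38 and passed as lower in tgTbr2GFP alone, at -0.53 ± 0.19 (SE; adjusted p = 0.0446). Without any of 9 of the 11 arrays its adjusted p was 0.0523 to 0.166.

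Of the linker genes, 2 of 8 were lower in PomcGFP and in both Tbr2 lines than in NesGFP, against 19.7% and 24.1% of all genes. In the Tbr2 lines 1 of 8 was higher, against 17.4% of all genes, and the others passed in no comparison. These linker counts are near the shares of all genes. H1f2, a somatic linker histone, stood at 10.96 and 10.52 on the PomcGFP arrays, 11.01, 11.17 and 10.98 on the kiTbr2GFP arrays, 10.81, 11.25 and 10.83 on the tgTbr2GFP arrays, and 11.84, 11.82 and 11.71 on the NesGFP arrays. NesGFP was above every other array, and tgTbr2GFP overlapped both PomcGFP and kiTbr2GFP. H1f2 was 2.07-fold lower in PomcGFP, with a difference of -1.05 ± 0.17 (SE; adjusted p = 0.000522), and 1.72-fold lower in both Tbr2 lines, with a difference of -0.78 ± 0.13 (SE; adjusted p = 0.000449).

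H1f5, also a somatic linker histone, stood at 7.46 and 7.17 on the PomcGFP arrays, 8.36, 8.17 and 8.17 on the kiTbr2GFP arrays, 7.53, 7.68 and 7.81 on the tgTbr2GFP arrays, and 8.84, 8.44 and 8.35 on the NesGFP arrays. PomcGFP was below every other array, tgTbr2GFP came next, and the first kiTbr2GFP array was just above the lowest NesGFP array. H1f5 differed from NesGFP by -1.23 ± 0.16 (SE; adjusted p = 0.000165) in PomcGFP, by -0.87 ± 0.15 (SE; adjusted p = 0.000697) in tgTbr2GFP and by -0.31 ± 0.15 (SE; adjusted p = 0.122) in kiTbr2GFP. H1f8, the oocyte linker histone, stood at 6.39 and 6.45 on the PomcGFP arrays, 6.47, 6.57 and 6.5 on the kiTbr2GFP arrays, 6.18, 6.63 and 6.52 on the tgTbr2GFP arrays, and 6.0, 6.01 and 6.19 on the NesGFP arrays. The order was turned for this gene, with NesGFP lowest, although the first tgTbr2GFP array lay within the NesGFP range. The NesGFP values were close to the 25th percentiles of their arrays, at 5.90, 5.91 and 6.01. That percentile was higher on the arrays of the other lines, at 6.05 to 6.20. H1f8 was 1.33-fold higher in both Tbr2 lines than in NesGFP, a difference of 0.41 ± 0.11 (SE; adjusted p = 0.00862), and its difference in PomcGFP was 0.35 ± 0.14 (SE; adjusted p = 0.0708). For each Tbr2 line alone the call of H1f8 was less stable, ending in kiTbr2GFP without kiTbr2GFP array 2 (adjusted p = 0.0529) and in tgTbr2GFP without NesGFP array 1 or 2 or tgTbr2GFP array 2 or 3 (adjusted p = 0.0824 to 0.139) or with the compared groups alone (adjusted p = 0.0996).

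For the 5 remaining linker genes the NesGFP arrays overlapped those of every other line. H1f1, a somatic linker histone, stood at 7.30 and 7.0 on the PomcGFP arrays, 7.64, 7.53 and 7.44 on the kiTbr2GFP arrays, 6.85, 7.28 and 7.25 on the tgTbr2GFP arrays, and 7.36, 6.96 and 7.80 on the NesGFP arrays. All kiTbr2GFP arrays of H1f1 lay above the tgTbr2GFP arrays, a difference that did not pass (0.41, adjusted p = 0.647). H1f3, also somatic, stood at 6.48 and 6.07 on the PomcGFP arrays, 7.0, 6.23 and 6.5 on the kiTbr2GFP arrays, 5.94, 6.38 and 6.29 on the tgTbr2GFP arrays, and 6.35, 6.34 and 5.88 on the NesGFP arrays, with its highest value in kiTbr2GFP and its lowest in NesGFP. The replication-independent H1f10 stood at 7.51 and 7.71 on the PomcGFP arrays, 7.56, 7.59 and 7.58 on the kiTbr2GFP arrays, 7.28, 7.43 and 7.80 on the tgTbr2GFP arrays, and 7.71, 7.41 and 7.76 on the NesGFP arrays, and no line was set apart.

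The testis linker H1f6 stood at 6.24 and 6.48 on the PomcGFP arrays, 6.31, 6.32 and 6.32 on the kiTbr2GFP arrays, 6.16, 6.30 and 6.49 on the tgTbr2GFP arrays, and 6.23, 6.20 and 6.38 on the NesGFP arrays, within a range shared by all lines. H1f7, another testis linker, stood at 7.0 and 7.26 on the PomcGFP arrays, 7.22, 7.24 and 7.28 on the kiTbr2GFP arrays, 7.18, 7.42 and 7.51 on the tgTbr2GFP arrays, and 6.88, 7.01 and 7.24 on the NesGFP arrays, and its tgTbr2GFP values reached highest. The difference of H1f7 from NesGFP was 0.33 ± 0.13 (SE; adjusted p = 0.0708) in tgTbr2GFP, which did not pass. The difference of H1f10 in PomcGFP from NesGFP was -0.02, with a 95% interval of -0.38 to 0.34, and that of H1f3 was 0.09, with an interval of -0.44 to 0.61.

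**Figure D4:**
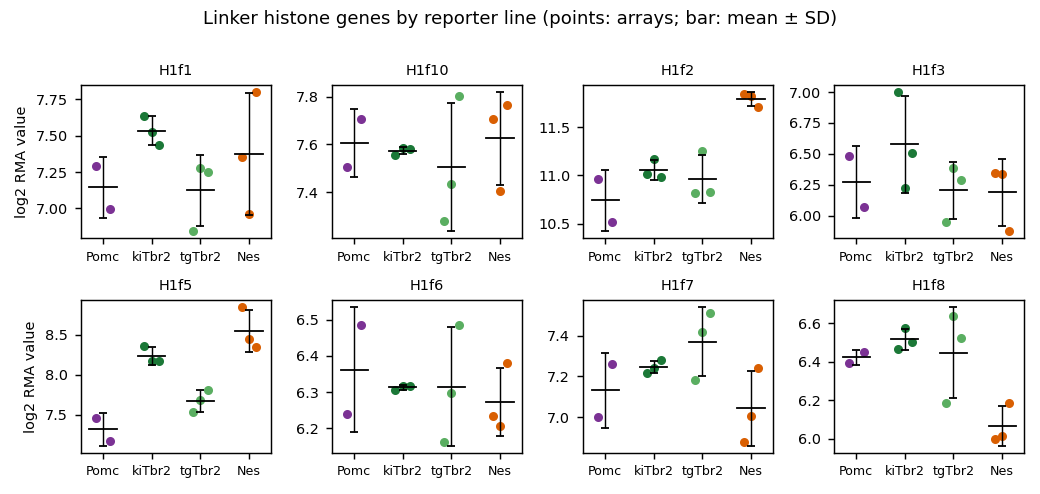
Log2 RMA values (vertical axes, a range of its own in each panel) of the 8 linker histone genes on each array, by line, with the mean and SD of each line as bars. NesGFP lies above all other arrays for H1f2, PomcGFP below all other arrays for H1f5, and NesGFP overlaps each other line for H1f1, H1f3, H1f6, H1f7 and H1f10.

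Between PomcGFP and both Tbr2 lines, which sets the Pomc-reporter cells against those marked by Tbr2, 4 of 30 histone genes were lower in PomcGFP and 0 higher, against 1.39% and 1.64% of all genes. The 4 were H4c4, H2bc21, H1f5 and H4c9, and the median of the 30 genes was -0.30, against 0.02 over all genes. Both PomcGFP arrays were below all 6 Tbr2 arrays in 8 of 30 genes (6.86% of all genes). H2bc21 differed by -0.76 ± 0.12 (SE; adjusted p = 0.00466) and H4c4 by -0.86 ± 0.18 (SE; adjusted p = 0.0293), with the values per array given above. H1f5 differed by -0.64 ± 0.15 (SE; adjusted p = 0.0407) and H4c9 by -0.62 ± 0.14 (SE; adjusted p = 0.0416). All 4 calls ended without the first or without the second PomcGFP array (adjusted p = 0.0652 to 0.443), and that of H4c9 also with an equal 75th percentile (adjusted p = 0.0524). Without kiTbr2GFP array 1, or without tgTbr2GFP array 2 or 3, 1 gene was called, H2bc21. Without kiTbr2GFP array 3 there were 2, H2bc21 and H4c4. Without kiTbr2GFP array 2 there were also 2, but of the 4 genes above only H2bc21 held. At an unadjusted p under 0.05, 10 of the 30 genes differed, against 11.8% of all genes.

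Of the Tbr2 lines, kiTbr2GFP and tgTbr2GFP gave 0 histone genes higher and 0 lower in limma, against 0.361% and 0.552% of all genes, and 7 of the 30 at an unadjusted p under 0.05, against 8.27% of all genes. With array weights, 4 were higher and 2 lower in kiTbr2GFP, against 2.96% and 4.14% of all genes. The difference nearest to the threshold was that of H2bc21, 0.56 with a 95% interval of 0.30 to 0.81 (adjusted p = 0.0587). H3c15 had the widest gap, -1.33 with an interval of -2.10 to -0.56 (adjusted p = 0.141), and H1f5 differed by 0.56 with an interval of 0.24 to 0.88 (adjusted p = 0.139). All kiTbr2GFP arrays were above all tgTbr2GFP arrays in 7 genes (7.2% of all genes), among them H4c4, H1f5 and H2bc21, and below them in H3c15 and H2bc22 (8.32% of all genes).

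Histone genes are so alike that many probes read several of them, and 26 further probe sets of the array were listed with several histone symbols. Their symbols named 18 of the 30 genes as well, so these probe sets are not independent of the members or of each other. Whether the single-symbol probe sets of the 30 genes also read other histone genes was not tested. Counts of genes may therefore also hold measurements that are not separate. A pair of H2B probe sets had the same rounded values on every array, as did a pair of H4 probe sets. Counts of shared probe sets therefore include repeats of the same measurement. In a fit of all 28858 probe sets, added after seeing the data, 26 of 26 shared probe sets were lower in PomcGFP than in NesGFP (16.8% of all probe sets) and 25 of 26 in both Tbr2 lines (20.5%). Their median differences were -1.62 and -0.94. The probe set that did not pass in the Tbr2 lines was that of H4c17 or H4c11, at -0.12 (adjusted p = 0.633).

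The 7 shared H2B probe sets stood at 7.47 to 8.45 on the PomcGFP arrays, 8.87 to 9.88 on the kiTbr2GFP arrays, 8.32 to 9.84 on the tgTbr2GFP arrays and 9.83 to 10.86 on the NesGFP arrays. With the 7 probe sets pooled, the PomcGFP values overlapped only those of tgTbr2GFP array 1, at 8.32 to 8.77. The other 2 tgTbr2GFP arrays stood at 9.23 to 9.84. Within each H2B probe set, both PomcGFP arrays lay below every Tbr2 array. The differences of the H2B probe sets from NesGFP were -2.71 to -1.81 in PomcGFP. The 5 shared H4 probe sets differed from NesGFP by -2.24 to -2.10 in PomcGFP and by -1.26 to -1.19 in both Tbr2 lines. The 10 shared H3 probe sets differed by -1.13 to -0.90 in PomcGFP and by -0.94 to -0.84 in both Tbr2 lines. The 2 shared H2A probe sets differed by -1.70 to -1.53 in PomcGFP and by -1.40 to -1.02 in both Tbr2 lines. Between PomcGFP and both Tbr2 lines, 5 of 7 H2B and 5 of 5 H4 shared probe sets were lower and 0 of the 10 H3 and 2 H2A ones passed, against 1.24% of all probe sets lower.

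**Figure D5:**
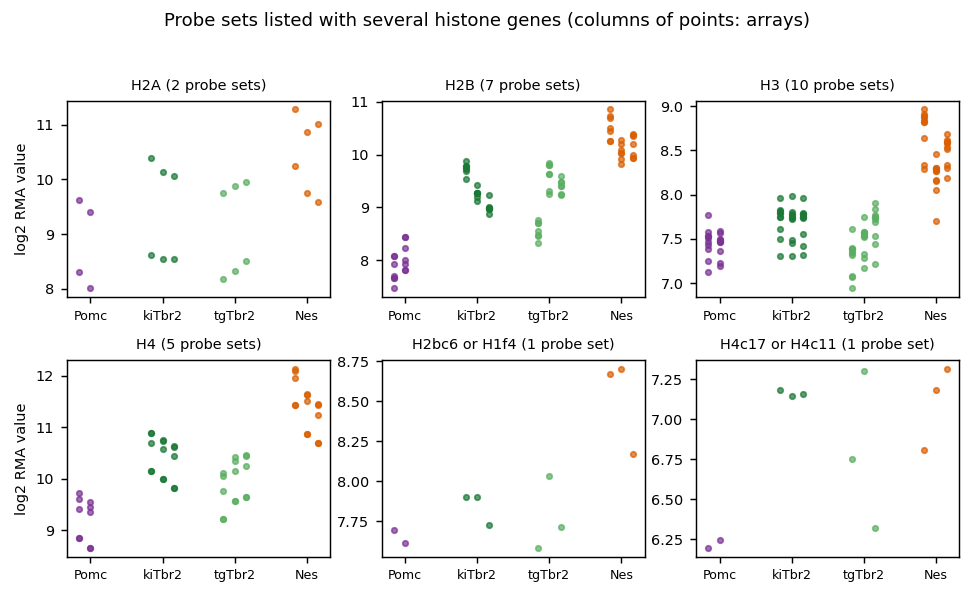
Log2 RMA values (vertical axes, a range of its own in each panel) of the 26 probe sets listed with several histone genes, by kind of histone, with 1 column of points per array and the lines side by side. In the H2B panel the PomcGFP points span 7.47 to 8.45, below all kiTbr2GFP points, and the NesGFP points span 9.83 to 10.86. The PomcGFP points there overlap those of tgTbr2GFP array 1 only between different probe sets, and within each probe set PomcGFP is lower. In the H3 panel the pooled PomcGFP points overlap those of both Tbr2 lines. Within each H3 probe set PomcGFP overlaps tgTbr2GFP but lies below all kiTbr2GFP arrays.

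The histone genes were set beside the genes that make and use histone mRNA and those of the cell cycle. Of 22 measured genes of histone mRNA metabolism and chromatin assembly, 7 were higher and 4 lower in both Tbr2 lines than in NesGFP, against 17.4% and 24.1% of all genes. In PomcGFP 5 were higher and 7 lower than in NesGFP, against 13.8% and 19.7%. Npat and Casp8ap2, which switch on and process histone transcripts at the histone gene clusters, were higher in both Tbr2 lines, by 1.07 ± 0.15 (SE; adjusted p = 0.000153) and 2.83 ± 0.27 (SE; adjusted p = 6.41e-06), while most histone genes that passed were lower. Both were also higher in PomcGFP than in NesGFP, by 0.68 ± 0.20 (SE; adjusted p = 0.0200) and 2.52 ± 0.35 (SE; adjusted p = 0.000192). Slbp differed by 0.02 ± 0.11 (SE; adjusted p = 0.909) in both Tbr2 lines and by -0.50 ± 0.14 (SE; adjusted p = 0.0149) in PomcGFP. Lsm10, a subunit of the small nuclear ribonucleoprotein that cuts histone pre-mRNA, was lower in both Tbr2 lines, at -1.79 ± 0.16 (SE; adjusted p = 4.37e-06). In PomcGFP Lsm10 was lower than in NesGFP as well, at -1.71 ± 0.21 (SE; adjusted p = 8.42e-05). Between PomcGFP and both Tbr2 lines, 3 of the 22 genes were lower and 0 higher in PomcGFP, against 1.39% and 1.64% of all genes. Hat1, an acetyltransferase of new H4, was lower in PomcGFP, at -1.37 ± 0.16 (SE; adjusted p = 0.000779). So were Nasp, an H3 and H4 chaperone, at -0.68 ± 0.13 (SE; adjusted p = 0.0167), and Slbp, at -0.51 ± 0.12 (SE; adjusted p = 0.0458).

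Of 27 measured S phase genes, 15 were lower and 2 higher in PomcGFP than in NesGFP, against 19.7% and 13.8% of all genes. In both Tbr2 lines 2 were lower and 3 higher, against 24.1% and 17.4% of all genes. Pcna, the sliding clamp of replication, differed by -0.72 ± 0.12 (SE; adjusted p = 0.000637) in PomcGFP and by 0.03 ± 0.09 (SE; adjusted p = 0.826) in both Tbr2 lines. Of 15 measured mitosis genes, 6 were higher and 0 lower in both Tbr2 lines, where Mki67 was higher by 2.42 ± 0.11 (SE; adjusted p = 5.11e-08), against 17.4% of all genes higher. In PomcGFP 7 mitosis genes were lower and 2 higher than in NesGFP, against 19.7% and 13.8%. The 2 higher genes were Mki67, at 0.77 ± 0.14 (SE; adjusted p = 0.00156), and Cenpe, at 1.13 ± 0.19 (SE; adjusted p = 0.000909). The mean of Mki67 was lowest in NesGFP, at 6.09. The Tbr2 lines differed in sign in the medians of these lists. For the S phase list the median was 0.19 in kiTbr2GFP (5 higher, 0 lower) and -0.13 in tgTbr2GFP (2 higher, 4 lower), and for the mitosis list it was 0.48 in kiTbr2GFP (8 higher, 0 lower) and -0.04 in tgTbr2GFP (6 higher, 0 lower). The median of the histone genes was -0.31 in kiTbr2GFP and -0.53 in tgTbr2GFP. Between the Tbr2 lines, 6 of 15 mitosis genes and 1 of 27 S phase genes were higher in kiTbr2GFP than in tgTbr2GFP, against 0.361% of all genes. These are medians of log2 differences over lists, and whether the lists differ from each other was not tested.

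Markers of other cells moved with the same comparisons. All 8 astrocyte and all 8 endothelial markers were lower in PomcGFP and in both Tbr2 lines than in NesGFP, and of 7 oligodendrocyte markers 5 were lower in PomcGFP and 7 in both Tbr2 lines. Of all genes, 19.7% were lower in PomcGFP and 24.1% in both Tbr2 lines. The mean log2 value of the astrocyte list was 8.73 to 8.80 on the PomcGFP arrays, 8.04 to 8.33 on the kiTbr2GFP arrays, 8.60 to 9.14 on the tgTbr2GFP arrays and 10.41 to 10.55 on the NesGFP arrays. Every NesGFP array was above every other array. For the endothelial list it was 6.86 to 7.17 in PomcGFP, 6.25 to 6.59 in kiTbr2GFP, 6.39 to 7.10 in tgTbr2GFP and at least 9.74 in NesGFP. For the oligodendrocyte list it was 8.82 to 8.97 in PomcGFP, 7.25 to 7.85 in kiTbr2GFP, 7.29 to 9.03 in tgTbr2GFP and 10.89 to 11.08 in NesGFP. Array 1 of tgTbr2GFP stood apart from arrays 2 and 3 of its line in the oligodendrocyte list, at 9.03 against 7.29 and 7.70, and was the highest of the 3 for the astrocyte list (9.14), the endothelial list (7.10) and 8 markers of mature granule neurons (9.28, against 8.73 and 8.98). Without that array, 11 histone genes were lower and 2 higher in tgTbr2GFP than in NesGFP, 14 lower and 2 higher in both Tbr2 lines, and 4 lower in PomcGFP than in both Tbr2 lines. None of these markers lay below the 25th percentile on every array. The part of these cells in the histone differences was not tested.

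Of 8 markers of mature granule neurons, 6 were higher in PomcGFP than in NesGFP, and 4 of 8 microglial markers were higher there, against 13.8% of all genes. Of these microglial calls, P2ry12 lay below the 25th percentile on every array. The reporter genes ran with the labels for Nes, at 5.97 to 6.07 on the PomcGFP arrays, 5.97 to 6.25 on the kiTbr2GFP arrays, 5.78 to 6.14 on the tgTbr2GFP arrays and 6.91 to 7.63 on the NesGFP arrays. Eomes was at 9.93 to 10.08 on the kiTbr2GFP arrays and 9.83 to 10.39 on the tgTbr2GFP arrays, against 8.52 to 9.23 on the NesGFP arrays. Pomc was at 7.22 to 7.27 on the PomcGFP arrays, against 6.83 to 7.08 on the NesGFP arrays. Array medians lay between 7.0 and 7.15 and the 75th percentiles between 8.10 and 8.35.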

How the data were processed

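The authors deposited 1 log2 value per probe set and array, for which the submitters' processing notes name RMA and oligo without a version. That the scale is log2 was inferred from RMA's usual output and the value range. How the RNA was primed for amplification is not given in the sources used here. How fully histone mRNAs without a poly(A) tail were measured is therefore not known. Of 28858 probe sets, 21789 had a single symbol, 1621 several and 5448 none, by the platform annotation. The highest-mean single-symbol probe set stood for a gene, with no filter on low values, so that all 30 histone genes were tested; 26 of them exceeded the 25th percentile of the array on at least 2 arrays.

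With 1 mean per line, the 11 arrays were fitted in limma 3.58.1 in R 4.3.3 (7 residual and 4.19 prior degrees of freedom), so that PomcGFP, with 2 arrays, shared the spread of the other lines. Tests were two-sided, with Benjamini-Hochberg adjustment over the 19938 genes of a comparison at 0.05, and differences are the first group minus the second. The script was tested on simulated data. The number of arrays limits the precision.

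Genes given array by array were all H1 genes and, per core family, up to 4 members past the F test with the largest range of group means, with H4c9 added after its values were seen. Members and lists were chosen with earlier results of these data known. Promoter sequences are those of RefSeq on GRCm38.p6, matched by symbol. Alternatives were cyclic loess, median centring, an equal 75th percentile, filters at the 25th and 50th percentile, the mean of probe sets, array weights, an intensity trend with robust prior, a block for replicate number, the compared groups alone, and leaving out each array. Tables and plots came from Python 3.11.15 (matplotlib 3.10.9, pandas 2.3.3, numpy 2.4.6).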

Additional observations from a re-analysis of the deposited data

How the results depend on the processing

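For the 62 calls of single histone genes, 0 of 1283 values under the alternatives changed direction and 82 no longer passed. Several alternatives cannot change a difference, so part of the first count was fixed by the settings. Every histone gene had a single probe set, so the filters and the mean of probe sets left its difference as it was. The same held for the intensity trend, the compared groups alone, and leaving out an array of a line not compared. Calls held in every alternative that tested the gene numbered 13 of 17 for PomcGFP against NesGFP, 12 of 15 for both Tbr2 lines, 9 of 12 for kiTbr2GFP and 10 of 14 for tgTbr2GFP, each against NesGFP, and 0 of 4 for PomcGFP against both Tbr2 lines. The count over the 4 groups was 14 to 19 under the other settings and 12 to 17 when each array was left out.

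The number of higher genes against NesGFP was 0 or 1 and moved by at most 1. For both Tbr2 lines it became 2 with cyclic loess, an equal 75th percentile or the replicate block, 0 with the 50th percentile filter, and 1 to 2 without single arrays. For kiTbr2GFP against NesGFP it became 2 with an equal 75th percentile, 0 with the 50th percentile filter, and 0 to 1 without single arrays. For tgTbr2GFP against NesGFP it became 2 with cyclic loess, an equal 75th percentile, array weights or the replicate block, 0 with the 50th percentile filter or the compared groups alone, and 0 to 2 without single arrays. For PomcGFP against NesGFP it became 1 with an equal 75th percentile or the replicate block, and 0 to 1 without single arrays. PomcGFP against both Tbr2 lines gave 7 lower genes with array weights, 2 with the replicate block, which ended the calls of H1f5 (adjusted p = 0.0597) and H4c9 (adjusted p = 0.0810), and 0 to 4 without single arrays. Between kiTbr2GFP and tgTbr2GFP, cyclic loess gave 1 higher gene, array weights 4 higher and 2 lower, and the replicate block 1 lower, and leaving out single arrays gave 0 to 1 higher. The cause was not tested, except that the 50th percentile filter tests fewer genes.

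The lines share replicate numbers, and the deviations of same-numbered arrays correlated at -0.0868 to 0.245 over 15 pairs, 4 of them over 0.1, against -0.231 to 0.105 for 30 pairs of different number. PomcGFP has 2 arrays, so their deviations mirror each other, and pairs with the first repeat those with the second with the sign turned. The arrays numbered 3 deviated together, at 0.138 to 0.245, whereas those numbered 1 stood at 0.00594 to 0.123 and those numbered 2 at -0.0868 to 0.028. Array 1 of kiTbr2GFP correlated better with NesGFP array 2 (0.105) than with NesGFP array 1 (0.0547). These correlations do not settle whether the numbers pair the arrays, and the main fit took the arrays as unpaired. With the replicate block the counts lower than in NesGFP were 18 for PomcGFP, 15 for both Tbr2 lines, 11 for kiTbr2GFP and 15 for tgTbr2GFP.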

Other observations

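A list drawn up for replication-independent histone variants held 12 genes, among them the linker gene H1f10, which is also among the 30 histone genes. Of the 12, 11 were measured. In PomcGFP 1 was higher and 6 were lower than in NesGFP, against 13.8% and 19.7% of all genes. In both Tbr2 lines 2 were higher and 2 lower than in NesGFP, against 17.4% and 24.1%. Between PomcGFP and both Tbr2 lines, 4 of 11 were lower in PomcGFP and 0 higher, against 1.39% and 1.64%. H2ax, the variant phosphorylated at DNA breaks, was lower in PomcGFP than in both Tbr2 lines, at -0.72 ± 0.15 (SE; adjusted p = 0.0230), and lower in both Tbr2 lines than in NesGFP, at -0.56 ± 0.13 (SE; adjusted p = 0.00407). H2az1 and H2az2, the H2A.Z variants of promoters, were lower in PomcGFP than in both Tbr2 lines, at -0.51 ± 0.11 (SE; adjusted p = 0.0280) and -0.70 ± 0.15 (SE; adjusted p = 0.0280). H2aj was lower in both Tbr2 lines than in NesGFP, at -1.27 ± 0.13 (SE; adjusted p = 9.15e-06), whereas H2ap and H2al2a were higher there, at 0.43 ± 0.11 (SE; adjusted p = 0.00897) and 0.60 ± 0.12 (SE; adjusted p = 0.00217). H3f3a, a gene of the replacement variant H3.3, passed in none of these comparisons, with a difference of -0.17 in PomcGFP from NesGFP.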
